A study of Homo sapiens with 2 samples.

Results

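Integrins and laminins are 2 families of adhesion genes, and 38 of the 36601 genes in the expression matrix belong to them by name. They are 26 integrin genes (18 encoding α chains and 8 encoding β chains) and 12 laminin genes. Members were taken by symbol. For 33 of them, 90 of 187920 open-chromatin peaks lay within 2 kb of the span from the first to the last annotated start, or inside it. The other 5 had no such peak. Levels are described across 5 human lung adenocarcinoma lines, A549, H838, H1975, H2228 and HCC827. Each was grown apart as 1 culture in RPMI medium with fetal calf serum to near confluency, then frozen, and the lines were pooled in equal shares for 1 droplet capture with no drug or genetic change. The capture was split, and the 80% fraction gave the 1 RNA and the 1 chromatin accessibility (ATAC) library described here, both read from the same droplets. With 1 culture per line and 1 library of each kind there was no replicate, so no difference below has a test or a replicate check.

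An integrin is a receptor of 1 α and 1 β chain that binds extracellular matrix outside the cell and links to the actin or keratin cytoskeleton inside it. A laminin is a secreted trimer of 1 α, 1 β and 1 γ chain, named by the numbers of its chains, and a main component of basement membranes. In epithelium, integrin α6β4 (ITGA6 with ITGB4) binds laminin with an α3 chain (LAMA3) in the hemidesmosome, the junction that anchors a basal cell to its basement membrane.

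The lines were told apart by clustering the barcodes on RNA and on ATAC without these genes or peaks, and barcodes that carried the RNA of several lines were left out. Of 3298 barcodes, 2321 entered the 5 lines, with 223 to 719 barcodes, 3126560 to 7659488 unique molecular identifiers (UMIs) and 6787969 to 20820672 peak counts per line. All 7 A549 markers were highest in 1 line and all 6 HCC827 markers in another, here called A549-like and HCC827-like. Markers of H1975, H2228 and H838 were each highest in several lines and were not used for names. The other lines are called by a leading gene: LCN2-high, SLC30A8-high and DHRS2-high. Of the H2228 markers, LCN2, CD74, SAA1 and SAA2 were highest in LCN2-high, and ALK and CDKN2A in HCC827-like. LCN2-high may thus be H2228, which was not settled. Median mitochondrial shares were 0.418% of UMIs in A549-like, 0.416% in SLC30A8-high, 6.98% in DHRS2-high, 8.95% in LCN2-high and 13.8% in HCC827-like barcodes. Genes picked in these data as most specific to 1 line stood in the other lines at a median of 0% to 5.11% of their own level. Single genes reached up to 21.8%. Low levels elsewhere follow from how these genes were picked, so they set no limit on carry-over between lines, which was not tested. Levels are CPM, the UMIs of a gene scaled to the total summed over a line, folds are of CPM + 1, and brackets hold exact 95% Poisson intervals, which cover counting error only. A gene counted as measured with at least 20 UMIs over the 5 lines, which 35 of the 38 members reached. ITGA8 had 9 UMIs, ITGAL 12 and ITGB7 10.

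Promoter windows from RefSeq (GRCh38.p14) matched 26 of the 38 members by symbol, and 4 are shown from 250 bases before the start to 30 after it because their data differ in kind. LAMA3 is shown at its last annotated start, where the 3 lines with the most RNA came in the same order in the peak. LAMB1 is shown because its start peak was nearly absent from 1 line. ITGA2 is shown because its start peak ranged far less between lines than its RNA. ITGB6 is shown because its start held almost no peak counts in any line. They were chosen after their values were seen. Capitals mark matches, on either strand, to AP-1 (TGANTCA), TEAD (GGAATG), ETS (CCGGAA), SP/KLF (GGGCGG), GRHL (AACCNGTT) or a ZEB E-box (CAGGTG).
LAMA3, chr18:23872770-23873049, + strand: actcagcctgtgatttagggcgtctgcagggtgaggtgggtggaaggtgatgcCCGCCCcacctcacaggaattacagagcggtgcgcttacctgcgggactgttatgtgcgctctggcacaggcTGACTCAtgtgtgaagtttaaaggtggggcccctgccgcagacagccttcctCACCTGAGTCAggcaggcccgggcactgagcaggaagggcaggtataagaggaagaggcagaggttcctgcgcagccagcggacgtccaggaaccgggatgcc
LAMB1, chr7:108003132-108003411, - strand: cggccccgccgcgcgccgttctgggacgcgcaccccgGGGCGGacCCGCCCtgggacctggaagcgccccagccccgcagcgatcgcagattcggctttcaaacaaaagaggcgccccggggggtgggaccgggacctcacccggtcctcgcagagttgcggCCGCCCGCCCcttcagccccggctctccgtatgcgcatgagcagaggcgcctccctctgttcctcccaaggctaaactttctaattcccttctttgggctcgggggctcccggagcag
ITGA2, chr5:52989102-52989381, + strand: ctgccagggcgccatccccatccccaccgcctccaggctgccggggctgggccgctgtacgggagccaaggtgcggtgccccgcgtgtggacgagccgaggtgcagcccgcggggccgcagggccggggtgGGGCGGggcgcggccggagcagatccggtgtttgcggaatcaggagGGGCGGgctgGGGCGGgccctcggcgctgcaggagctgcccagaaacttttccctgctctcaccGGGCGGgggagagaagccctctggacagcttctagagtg
ITGB6, chr2:160200243-160200522, - strand: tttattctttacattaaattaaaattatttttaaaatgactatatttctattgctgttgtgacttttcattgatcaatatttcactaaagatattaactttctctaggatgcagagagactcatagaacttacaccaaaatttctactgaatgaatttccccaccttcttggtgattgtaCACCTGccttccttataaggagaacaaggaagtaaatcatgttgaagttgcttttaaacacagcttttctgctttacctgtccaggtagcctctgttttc

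The LAMA3 window held 2 AP-1 matches, 1 SP/KLF match and 1 E-box, and the E-box CACCTG ran into the second AP-1 match, sharing its last bases. LAMB1 and ITGA2 each held 4 SP/KLF matches, and ITGB6 held 1 E-box. GC content was 32.1% in the ITGB6 window, against 61.4% for LAMA3, 70.4% for LAMB1 and 73.9% for ITGA2. Over whole RefSeq windows of 300 bases, AP-1 matches were in 2 of 26 members (LAMA3 and ITGA5), or 7.69%, against 7.71% of 35116 promoters. TEAD matches were in 15.4% of members against 14.0%, ETS in 15.4% against 17.2%, SP/KLF in 53.8% against 45.0%, the E-box in 26.9% against 20.6% and GRHL in 0 of 26 against 1.73%. The members' shares were thus near those of all promoters, and a match is a description of the letters only.

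Most measured members differed widely between lines. The highest line was at least 4-fold above the lowest for 25 of 35 members (71.4%), against 38.0% of the 19382 genes measured. The median log2 difference between the highest and the lowest line was 2.38 over members and 1.67 over all genes. A line stood at least 2-fold above the next for 8 members, or 22.9%, against 21.3% of all genes, so members were led by a single line about as often as other genes. A line stood at least 2-fold below the next for 11 members, or 31.4%, against 11.8% of all genes. At a pseudocount of 5 CPM the 4-fold count was 16, against 19.2% of all genes, and the 2-fold-below count 5, against 5.27%. With ATAC clusters, RNA clusters or mixed barcodes kept, 4, 5 and 5 of 37 members were led, against 17.2%, 18.2% and 18.9% of all genes. With ATAC clusters 6 of 37 had a line 2-fold below, against 8.41%. The plot of RNA levels by role shows the measured members in every line.

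**Figure D1:**
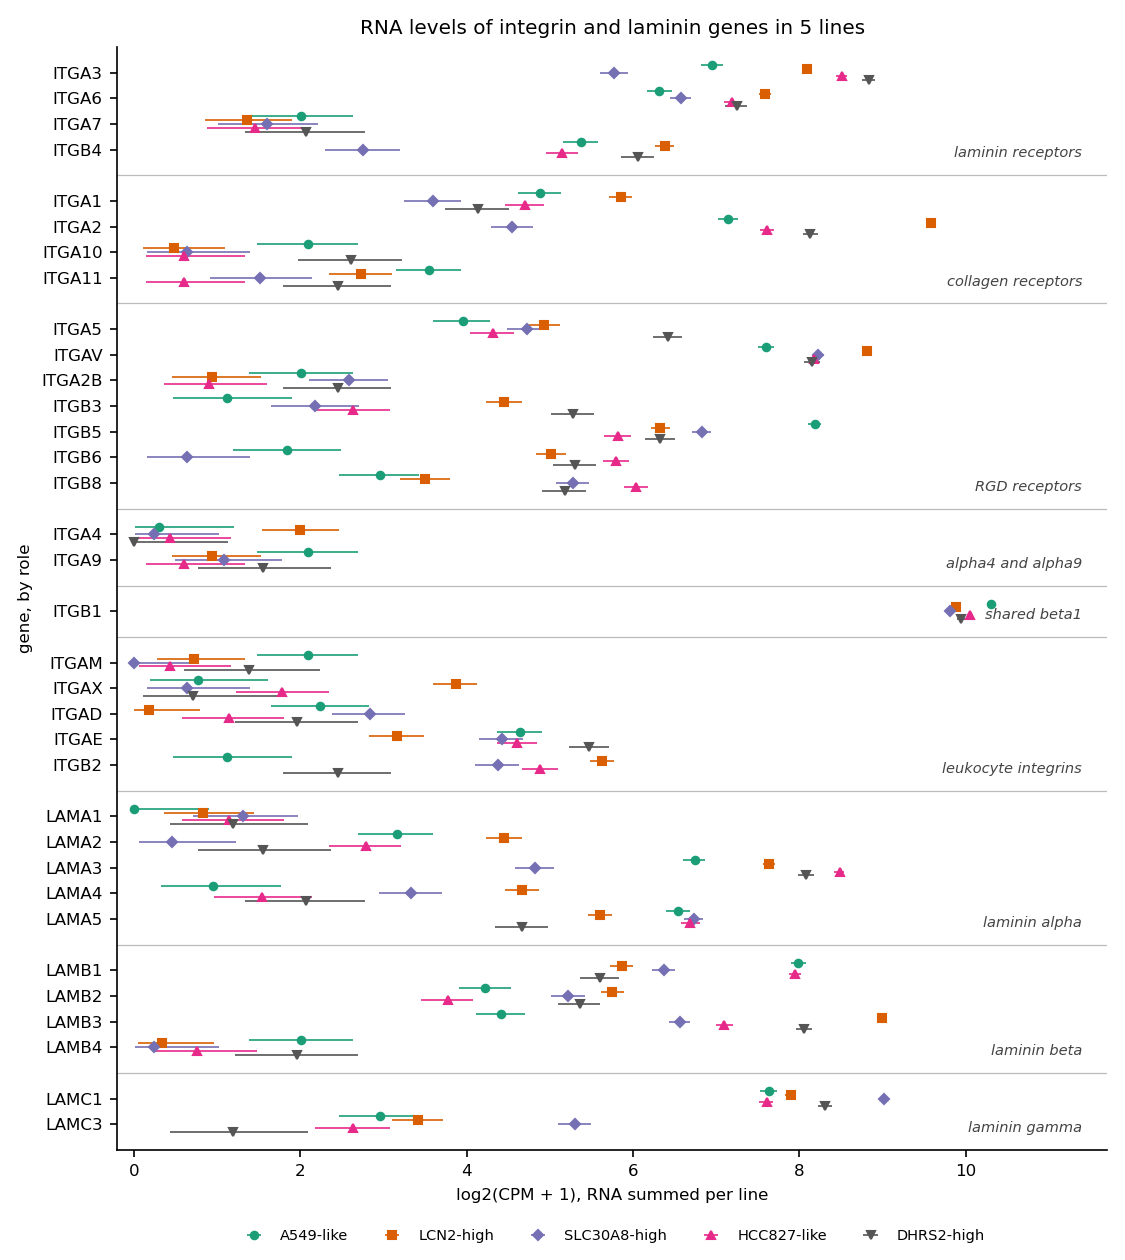
RNA level of 34 of the 35 measured members in 5 lines, as log2(CPM + 1) of UMIs summed per line, with exact 95% Poisson intervals that cover counting error only. ITGB1 lies between 897 and 1260 CPM in every line, while ITGA2 spans 22.4 to 768 CPM and ITGB6 spans 0.556 to 54.6 CPM.

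Summed over whole lines, the shared β1 chain was the least variable of the well-measured members. ITGB1 (ENSG00000150093), which pairs with most matrix-binding α chains, was at 1260 CPM in A549-like [1227, 1294], 945 in LCN2-high, 897 in SLC30A8-high [872, 922], 1061 in HCC827-like and 986 in DHRS2-high. The lines therefore lay within 1.40-fold of each other. Of its α partners, ITGA1, ITGA5, ITGA3 and ITGA2 ranged 4.77-fold to 32.8-fold, whereas ITGAV and ITGA6 ranged 2.31-fold and 2.42-fold.

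Among laminin receptors, ITGA3 and ITGB4 were lowest in SLC30A8-high. ITGA3, the α chain of the laminin receptor α3β1, was at 123 CPM in A549-like, 271 in LCN2-high, 53.8 in SLC30A8-high [47.8, 60.3], 363 in HCC827-like and 455 in DHRS2-high [432, 479]. That is an 8.33-fold range, with SLC30A8-high 2.26-fold below the next line. ITGB4, the hemidesmosomal β chain, was at 40.4 CPM in A549-like, 82.5 in LCN2-high [76.2, 89.2], 5.75 in SLC30A8-high [3.91, 8.16], 34.5 in HCC827-like and 65.6 in DHRS2-high. SLC30A8-high was 5.26-fold below the next line for ITGB4, and the other lines ran from 34.5 to 82.5 CPM. ITGA6, which joins β4 or β1, was at 78.8, 192, 94.4, 145 and 151 CPM in A549-like, LCN2-high, SLC30A8-high, HCC827-like and DHRS2-high. Its 2.42-fold range was small beside that of ITGB4. ITGA7, the α chain of a muscle laminin receptor, was at 1.57 to 3.20 CPM with overlapping intervals.

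The collagen receptor chain ITGA2 was the member that LCN2-high led most clearly among those with many UMIs. ITGA2 (ENSG00000164171), which forms α2β1, was at 140 CPM in A549-like, 768 in LCN2-high [749, 788], 22.4 in SLC30A8-high [18.6, 26.8], 194 in HCC827-like and 280 in DHRS2-high. LCN2-high was 2.74-fold above DHRS2-high, and SLC30A8-high was 6.02-fold below A549-like, for a range of 32.8-fold. ITGA1, which also binds collagen with β1, was at 28.5, 56.8, 11.1, 25.0 and 16.6 CPM in A549-like, LCN2-high, SLC30A8-high, HCC827-like and DHRS2-high. It had the same highest and lowest lines as ITGA2, but the intervals of SLC30A8-high [8.49, 14.3] and DHRS2-high [12.4, 21.8] overlapped. ITGA11, a fibrillar collagen receptor chain known from fibroblasts, was at 10.7 CPM in A549-like [7.86, 14.3] and 0.520 in HCC827-like [0.107, 1.52]. ITGA10 was at 0.392 to 5.12 CPM on 39 UMIs.

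Receptors of RGD ligands, which bind an arginine-glycine-aspartate motif in fibronectin, vitronectin or latent TGF-β, shared a steady αv chain but had different β chains by line. ITGAV was at 193 CPM in A549-like, 448 in LCN2-high, 299 in SLC30A8-high, 289 in HCC827-like and 283 in DHRS2-high, and the last 3 had overlapping intervals. ITGB5, the vitronectin-binding partner, was at 290 CPM in A549-like [275, 307], 79.2 in LCN2-high, 113 in SLC30A8-high, 55.3 in HCC827-like [49.4, 61.7] and 79.3 in DHRS2-high. A549-like led ITGB5 by 2.56-fold.

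ITGB6, the epithelial chain of αvβ6 that activates latent TGF-β, was nearly confined to 3 lines, with values of 2.57 CPM in A549-like [1.28, 4.59], 31.3 in LCN2-high [27.5, 35.6], 0.556 in SLC30A8-high [0.115, 1.63], 54.6 in HCC827-like [48.7, 61.0] and 38.4 in DHRS2-high [31.8, 45.9]. Its range of 35.7-fold was the widest of any measured member. ITGB8, the other chain with a latent TGF-β receptor, was at 6.76, 10.3, 37.8, 64.7 and 35.2 CPM in A549-like, LCN2-high, SLC30A8-high, HCC827-like and DHRS2-high. SLC30A8-high, which had almost no ITGB6 RNA, thus had 37.8 CPM of ITGB8 [32.8, 43.4]. ITGB3, the chain of the αvβ3 vitronectin receptor, was at 1.17, 20.9, 3.52, 5.20 and 37.7 CPM in the same order of lines. ITGA5, the α chain of the fibronectin receptor α5β1, was at 84.4 CPM in DHRS2-high [74.6, 95.3] and at 14.5 to 29.6 CPM elsewhere, a lead of 2.79-fold. The lead was smaller in barcodes with at most 5% mitochondrial UMIs. There ITGA5 was at 48.0 CPM in DHRS2-high [33.1, 67.4] and 34.9 in LCN2-high [19.1, 58.5]. The platelet chain ITGA2B was at 0.867 to 5.01 CPM.

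Leukocyte integrin chains were present at low levels, while most leukocyte markers were close to 0. Of 12 immune markers, MS4A1, LYZ and NKG7 had no UMI and CD3D, CD3E and TYROBP were at most 0.556 CPM. The pan-leukocyte gene PTPRC was at 7.18 CPM in LCN2-high and at most 0.520 elsewhere, and the monocyte gene CD14 was also highest in LCN2-high, at 7.18 CPM. Over whole lines, LCN2-high was also the highest line for ITGB2, ITGAX and ITGA4. The part of PTPRC-bearing cells in that was not tested. The lysosomal gene CD68 was the highest of them, at 44.5 CPM in DHRS2-high, and the summed list was at 11.9, 26.5, 24.3, 51.1 and 62.4 CPM in A549-like, LCN2-high, SLC30A8-high, HCC827-like and DHRS2-high. ITGB2, the shared chain of the β2 leukocyte integrins, was at 1.17 CPM in A549-like [0.379, 2.72], 48.4 in LCN2-high [43.6, 53.6], 19.7 in SLC30A8-high, 28.6 in HCC827-like and 4.48 in DHRS2-high. Its partner ITGAX was at 13.6 CPM in LCN2-high [11.1, 16.5] and at 0.556 to 2.43 CPM elsewhere, a lead of 4.25-fold. The ITGAX lead rests on 126 UMIs over all lines. ITGAE, the α chain of the E-cadherin receptor of intraepithelial lymphocytes, was at 24.0, 7.96, 20.4, 23.4 and 43.5 CPM in A549-like, LCN2-high, SLC30A8-high, HCC827-like and DHRS2-high, although its only partner ITGB7 had 10 UMIs. ITGAD, an α chain of macrophages, was at 6.12 CPM in SLC30A8-high [4.21, 8.59] and 0.131 in LCN2-high. ITGAM was at 3.27 CPM in A549-like and had no UMI in SLC30A8-high, which allows up to 0.556 CPM when a count of 0 is taken to allow 3 UMIs (the 2-sided interval reaches 0.684). ITGA4, the α chain that binds VCAM1, was at 3 CPM in LCN2-high [1.90, 4.51] and had no UMI in DHRS2-high, which by the same limit allows up to 0.960 CPM (1.18 by the interval). ITGA9 was at 0.520 to 3.27 CPM.

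The laminin chains LAMA3 and LAMB3, known from epithelial basement membranes, were both lowest in A549-like and SLC30A8-high but were highest in different lines. LAMA3 (ENSG00000053747), the α3 chain, was at 106 CPM in A549-like, 198 in LCN2-high, 27.3 in SLC30A8-high [23.0, 32.0], 357 in HCC827-like [341, 372] and 270 in DHRS2-high. LAMB3 (ENSG00000196878), the β3 chain, was at 20.3 CPM in A549-like [16.3, 25.0], 508 in LCN2-high [492, 524], 93.7 in SLC30A8-high, 136 in HCC827-like and 266 in DHRS2-high. HCC827-like was highest for the α3 chain, and LCN2-high was highest for β3, by 1.91-fold. The ranges were 12.7-fold for LAMA3 and 23.9-fold for LAMB3.

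In all, 8 members had A549-like and SLC30A8-high as their lowest lines, among them ITGA3, ITGA6, ITGA2, ITGB3, ITGB6, LAMA3 and LAMB3. That is 22.9% of members against 12.4% of all genes, and the pattern was chosen after the values were seen. These are also the lines with the lowest mitochondrial shares, whose part in the pattern was not tested over whole lines. When only barcodes with at most 5% mitochondrial UMIs were summed, 7 of the 28 members then measured had this pattern, against 11.2% of all genes, among them 6 of the 8. The remaining members of the 8 were ITGB6 and LAMB3. LCN2-high kept only 50 barcodes and 401215 UMIs in that comparison.

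The other laminin chains were led by different lines. LAMA5, the α chain of laminin-511 and laminin-521 in most adult basement membranes, was at 92.1, 47.7, 105, 102 and 24.3 CPM in A549-like, LCN2-high, SLC30A8-high, HCC827-like and DHRS2-high. LAMA4, a chain known from vessels and mesenchyme, was at 24.4 CPM in LCN2-high [21.0, 28.2] and 9.09 in SLC30A8-high [6.72, 12], against 0.933 to 3.20 CPM elsewhere. LAMA2, the chain of muscle and nerve laminins, was at 20.9 CPM in LCN2-high [17.8, 24.4] and 0.371 in SLC30A8-high [0.0449, 1.34]. LCN2-high led LAMA4 by 2.52-fold and LAMA2 by 2.45-fold. Its markers of other cell types were mixed: the endothelial gene PECAM1 was at 95.6 of the 97.4 CPM summed over 8 endothelial genes and COL1A1 at 124 of the 127 CPM summed over 6 fibroblast genes there, while CDH5 was at 0.131, VWF at 0.392, PDGFRB at 0.261 and DCN had no UMI in any line. The part of other cell types in these levels was not tested. LAMA1, the chain of embryonic laminin-111, was at 0 to 1.48 CPM on 25 UMIs.

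LAMB1 and LAMB3 were high in different lines. LAMB1, the β1 chain, was at 253 CPM in A549-like [238, 269], 57.2 in LCN2-high, 81.6 in SLC30A8-high, 246 in HCC827-like [233, 259] and 47.7 in DHRS2-high [40.3, 56.0]. A549-like and HCC827-like thus lay together at the top, with overlapping intervals. LAMB2, the β2 chain, was at 17.7, 52.9, 36.3, 12.7 and 40.0 CPM in A549-like, LCN2-high, SLC30A8-high, HCC827-like and DHRS2-high, and its lowest lines, HCC827-like and A549-like, were the highest for LAMB1. LAMB4 was at 0.185 to 3.03 CPM on 29 UMIs.

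SLC30A8-high was the highest line for the γ1 and γ3 chains. LAMC1, the γ1 chain found in most laminins, was at 198 CPM in A549-like, 237 in LCN2-high, 519 in SLC30A8-high [499, 538], 194 in HCC827-like and 316 in DHRS2-high. LAMC3, the γ3 chain, was at 6.76, 9.66, 38.4, 5.20 and 1.28 CPM in A549-like, LCN2-high, SLC30A8-high, HCC827-like and DHRS2-high. SLC30A8-high led LAMC3 by 3.69-fold, while DHRS2-high was 2.72-fold below the next line.

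Counted by line, LCN2-high led 5 of the 35 members by at least 2-fold (ITGA2, ITGA4, ITGAX, LAMA2 and LAMA4), or 14.3%, against 4.61% of all genes. SLC30A8-high trailed for 6 (ITGA3, ITGB4, ITGA2, ITGB6, LAMA2 and LAMA3), or 17.1%, against 3.89% of all genes. Both lines were chosen for these counts after the values were seen. Leaving out mixed barcodes also took most from LCN2-high, which kept 407 of 644. Against the median of the other lines, 13 of 35 members (37.1%) were at least 2-fold lower in SLC30A8-high and 5 higher, against 15.6% and 15.7% of all genes. In A549-like 11 (31.4%) were lower and 7 higher, against 12.7% and 15.9%. In LCN2-high 11 (31.4%) were higher and 8 lower, against 13.5% and 14.7%. In HCC827-like 7 were higher and 5 lower, against 9.67% and 13.1%, and in DHRS2-high 7 and 5, against 11.1% and 9.85%.

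A receptor or a trimer needs all its chains in the same cell, which levels summed over a line cannot show. A list of known combinations, which is not complete, was counted where the level of every chain in the line reached 10 CPM. Of 24 integrin pairs, 9 met this in A549-like, 12 in LCN2-high, 8 in SLC30A8-high, 10 in HCC827-like and 11 in DHRS2-high. The 7 pairs met in every line were α1β1, α2β1, α3β1, α5β1, α6β1, αvβ1 and αvβ5. The pair α6β4 was met in every line except SLC30A8-high, and αvβ8 in every line except A549-like. The TGF-β-activating pair αvβ6 was met in LCN2-high, HCC827-like and DHRS2-high, αvβ3 in LCN2-high and DHRS2-high, α11β1 in A549-like and αXβ2 in LCN2-high. The other 11 pairs were met in none. These exceptions depend on the minimum: at 5 CPM both α6β4 and αvβ8 were met in every line, αvβ3 also in HCC827-like and α11β1 also in LCN2-high, while αvβ6 and αXβ2 were met in the same lines as at 10 CPM. The pairs α10β1 in DHRS2-high and αDβ2 in SLC30A8-high were then met as well.

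Of 13 laminin trimers, 4 were met in A549-like, 8 in LCN2-high, 5 in SLC30A8-high, 4 in HCC827-like and 4 in DHRS2-high. Laminin-311, laminin-321, laminin-511 and laminin-521 were met in every line. Laminin-211, laminin-221, laminin-411 and laminin-421 were met in LCN2-high alone, and laminin-523 in SLC30A8-high alone. At 5 CPM the counts of trimers were 8, 11, 8, 8 and 4 in A549-like, LCN2-high, SLC30A8-high, HCC827-like and DHRS2-high, and none of these 5 trimers was then met in 1 line alone. Laminin-211 and laminin-221 were met also in A549-like and HCC827-like, laminin-411 and laminin-421 also in SLC30A8-high, and laminin-523 in every line except DHRS2-high. RNA of every chain does not show that the protein complex was made.

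**Figure D2:**
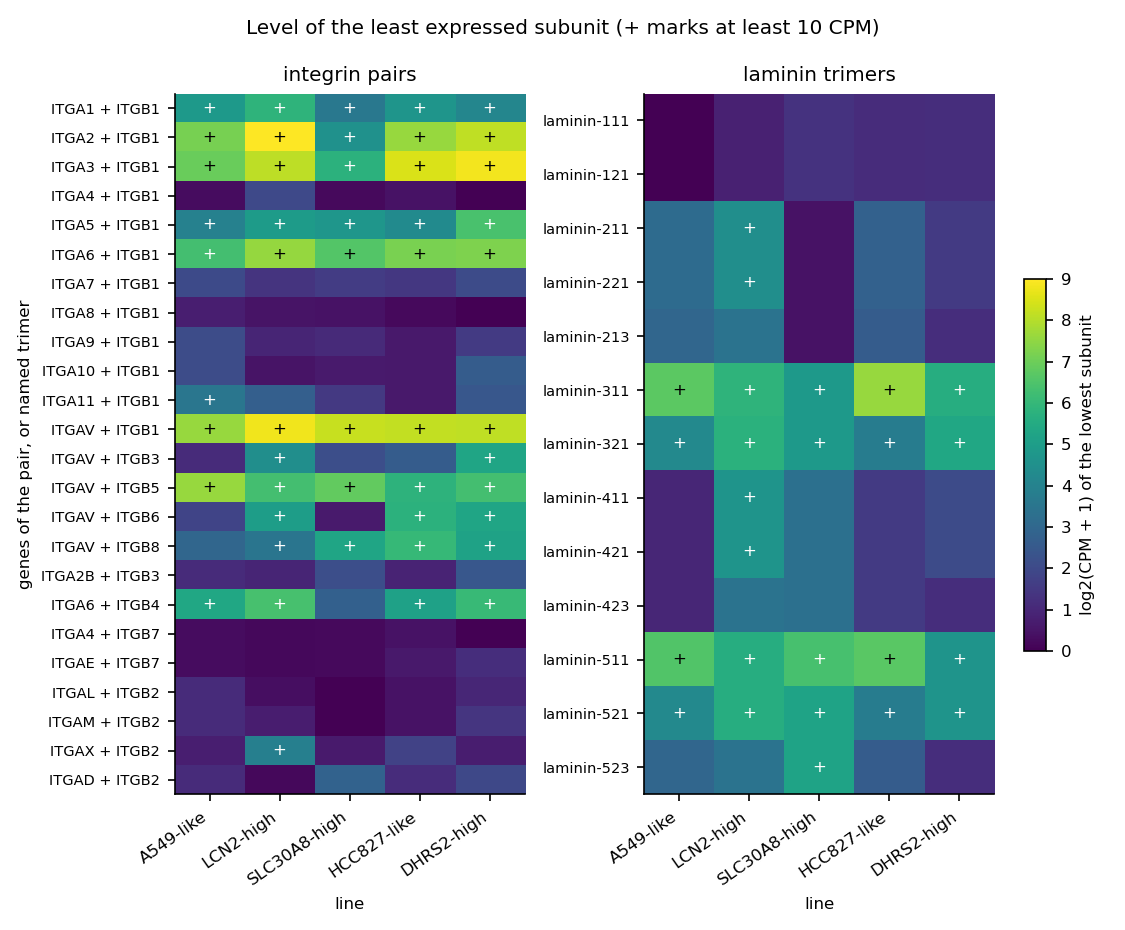
Level of the least expressed subunit of 24 integrin pairs and 13 laminin trimers in 5 lines, as log2(CPM + 1), with a plus sign where it reached 10 CPM. LCN2-high meets 12 pairs and 8 trimers, and ITGAV with ITGB6 is marked in LCN2-high, HCC827-like and DHRS2-high.

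Peaks near members did not vary more than peaks elsewhere. Of 66 measured peaks (at least 100 counts), 24 had a 4-fold range between lines, or 36.4%, against 46.9% of the 96656 peaks measured. With peak counts reduced to present or absent it was 15 of 51, against 41.1% of all peaks. The median log2 range was 1.63 over member peaks and 1.91 over all peaks. LAMA3 alone had 25 of the 90 peaks, since its annotated starts span 183603 bases. RNA and the strongest peak were highest in the same line for 12 of 28 members with both measured, or 42.9%, against 47.3% of all genes. Where both had a 4-fold range this held for 5 of 8 members, against 64.9% of all genes. Peak signal and RNA therefore agreed on the top line about as often for members as for other genes.

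At LAMB1, LAMC3 and LAMA4 the strongest start peak ranged 7.42-fold to 13.3-fold. At LAMB1 (chr7:108002806-108003643) the peak was at 16.2, 5.65, 9.04, 12.2 and 0.295 CPM in A549-like, LCN2-high, SLC30A8-high, HCC827-like and DHRS2-high. The LAMB1 peak was thus almost absent from DHRS2-high, where LAMB1 RNA was still at 47.7 CPM. Genes picked as most specific to A549-like stood in DHRS2-high at a median of 0.516% of their own level (highest 3.49%). Those of HCC827-like, the other line with high LAMB1, stood at a median of 2.35% (highest 10.8%). These genes were picked for low levels elsewhere and set no limit for LAMB1, so the part of carry-over was not tested.

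At LAMC3 (chr9:131008690-131009620) the peak was at 14.9, 16.5, 22.9, 16.0 and 1.18 CPM in A549-like, LCN2-high, SLC30A8-high, HCC827-like and DHRS2-high. SLC30A8-high was highest and DHRS2-high lowest in both LAMC3 peak and RNA. At LAMA4 (chr6:112253694-112254554) it was at 2.16, 8.58, 8.60, 2.44 and 0.295 CPM in the same order of lines. The peak was within counting error in LCN2-high and SLC30A8-high, while LAMA4 RNA was higher in LCN2-high. Scaled to the other peaks within 5 Mb, a measure that also takes in copy number, the ranges were 12.5-fold at LAMB1, 12.7-fold at LAMC3 and 6.78-fold at LAMA4.

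The peaks at the first and the last annotated start of LAMA3 differed in their range between lines. The peak at the first annotated start was at 8.50, 9.05, 12.3, 15.7 and 8.25 CPM in A549-like, LCN2-high, SLC30A8-high, HCC827-like and DHRS2-high, a range of 1.81-fold. The peak at the last start (chr18:23872456-23873341), which covers the window shown above, was at 0.384 CPM in A549-like [0.105, 0.984], 4.81 in LCN2-high, 1.30 in SLC30A8-high [0.544, 2.62], 19.0 in HCC827-like [14.8, 24.0] and 8.69 in DHRS2-high. It had a 14.5-fold range, and its 3 highest lines came in the same order as in LAMA3 RNA. A549-like had 106 CPM of LAMA3 RNA with almost no signal at this start. Between the starts lay a peak at 15.7 CPM in SLC30A8-high and 0.785 to 2.99 CPM elsewhere (chr18:23844786-23845681), and another at 10.7 CPM in LCN2-high and 0.271 to 1.18 CPM elsewhere (chr18:23857504-23858416). The LAMA3 peak with the most counts also lay there (chr18:23719430-23720330), with 819 counts against 314 at the last start. It was at 13.4, 10.3, 16.5, 9.09 and 12.7 CPM in A549-like, LCN2-high, SLC30A8-high, HCC827-like and DHRS2-high, a 1.73-fold range. That peak was highest in SLC30A8-high, where LAMA3 RNA was lowest, and lowest in HCC827-like, where the RNA was highest. Gene counts do not separate transcripts by start.

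**Figure D3:**
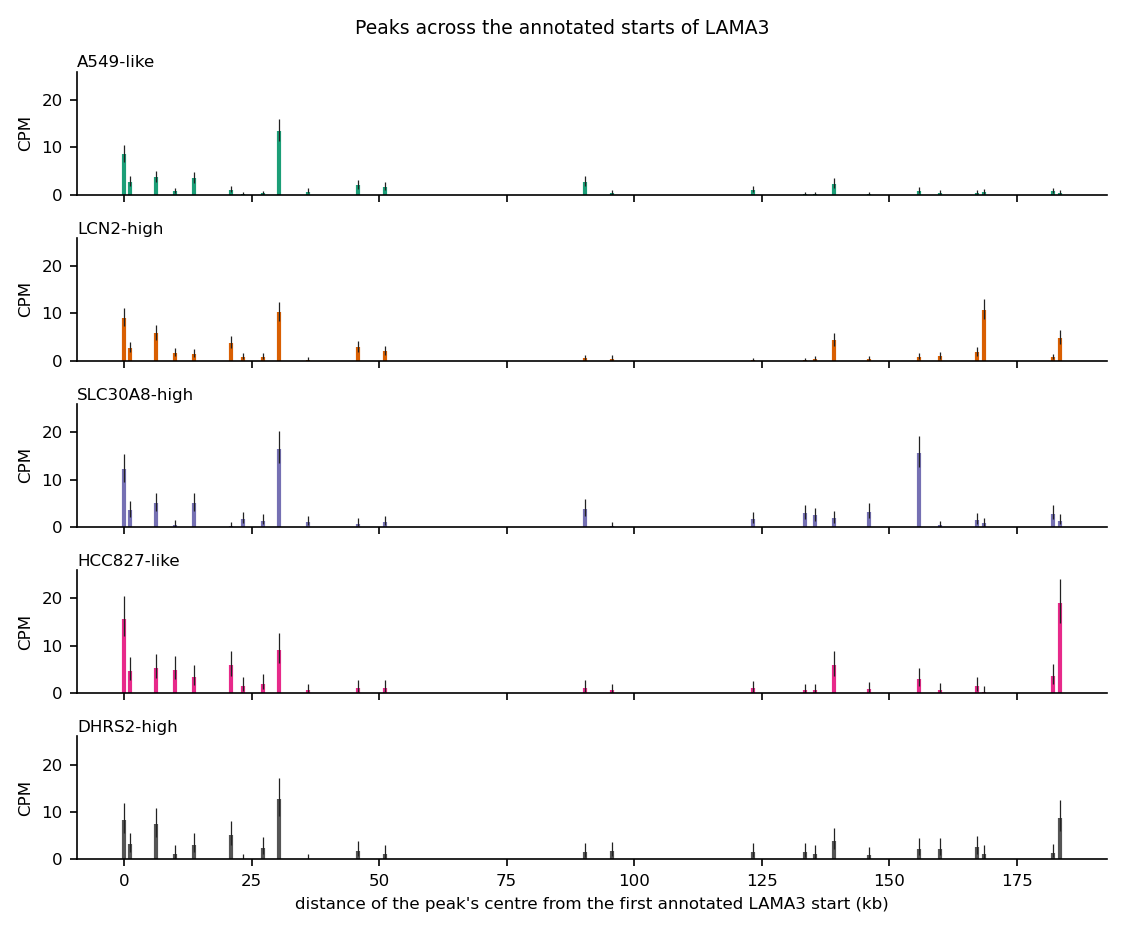
CPM in each of the 25 peaks across the annotated starts of LAMA3, by distance of the peak's centre from the first start in kb, 1 panel per line, with exact 95% Poisson intervals on counts divided by 2. The peak at the last start reaches 19.0 CPM in HCC827-like and 0.384 CPM in A549-like, while the peak at the first start lies between 8.25 and 15.7 CPM.

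ITGA2 and LAMB3 had their variable peak beside the start. The ITGA2 start peak (chr5:52988869-52989721), under the window shown above, was at 27.0, 23.9, 14.1, 28.4 and 22.4 CPM in A549-like, LCN2-high, SLC30A8-high, HCC827-like and DHRS2-high, only a 1.95-fold range against 32.8-fold in RNA. A peak 1089 bases away (chr5:52987443-52988262) was at 1.97, 7.54, 0.869, 17.8 and 13.4 CPM, a 10.0-fold range. It was lowest in A549-like and SLC30A8-high, as the RNA was, but highest in HCC827-like rather than in LCN2-high. The strongest LAMB3 peak, 335 bases from its starts (chr1:209652761-209653500), was at 6.53, 17.9, 8.78, 37.7 and 18.6 CPM, and it too was highest in HCC827-like while LAMB3 RNA was highest in LCN2-high. It held 983 counts, against 981 in the LAMB3 peak at the starts (chr1:209650917-209651773). That peak was highest in LCN2-high, at 21.2 CPM, and lowest in A549-like, at 9.17, as the RNA was. A further LAMB3 peak (chr1:209649032-209649910) was also highest in LCN2-high, at 13.1 CPM, but lowest in SLC30A8-high. In both, the intervals of LCN2-high and HCC827-like overlapped.

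For other members the start was open in every line. ITGB1 (chr10:32957898-32958769) was at 93.1, 38.6, 82.0, 53.8 and 52.3 CPM in A549-like, LCN2-high, SLC30A8-high, HCC827-like and DHRS2-high, a wider range than that of its RNA. LAMC1 (chr1:183022844-183023686) was at 51.1, 35.7, 96.0, 33.1 and 28.1 CPM, highest in SLC30A8-high as its RNA was. ITGB4 (chr17:75720866-75721767) was at 33.1, 31.5, 9.82, 30.1 and 20.0 CPM, and again lowest in SLC30A8-high. ITGA3 (chr17:50055467-50056335) was at 74.4, 40.7, 32.4, 46.3 and 42.1 CPM. The ITGA3 peak was highest in A549-like, where its RNA was second lowest. In A549-like the other peaks within 5 Mb were at 1.47 times their mean over lines around ITGA3 and 1.49 times around ITGB4. The part of such regional signal was not tested.

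Some low-level members also had peaks that differed widely between lines. The strongest peaks of ITGA10, ITGA7 and ITGA9 ranged less, by 1.54-fold, 1.63-fold and 2.95-fold. At ITGA4 (chr2:181456868-181457762) the peak was at 5.09 CPM in A549-like, 8.37 in LCN2-high and 0.695 in SLC30A8-high, and had no count in HCC827-like or DHRS2-high, which at 3 fragments of 2 counts allows up to 0.814 and 0.884 CPM (1.00 and 1.09 by the 2-sided interval). LCN2-high was highest in both ITGA4 peak and RNA. At ITGAX (chr16:31354642-31355483) it was at 4.37, 11.6, 1.39, 7.60 and 3.83 CPM in A549-like, LCN2-high, SLC30A8-high, HCC827-like and DHRS2-high, again highest in LCN2-high. The ITGA11 peak (chr15:68431742-68432587) was at 10.0, 12.1, 3.04, 3.12 and 1.18 CPM. At ITGB6, whose window is shown above, the peak held 56 counts over all lines, under the minimum for a measured peak, although its RNA had the widest range. At ITGB7 a peak was at 14.1 CPM in DHRS2-high and 0.672 in A549-like, with 10 UMIs of RNA in all.

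**Figure D4:**
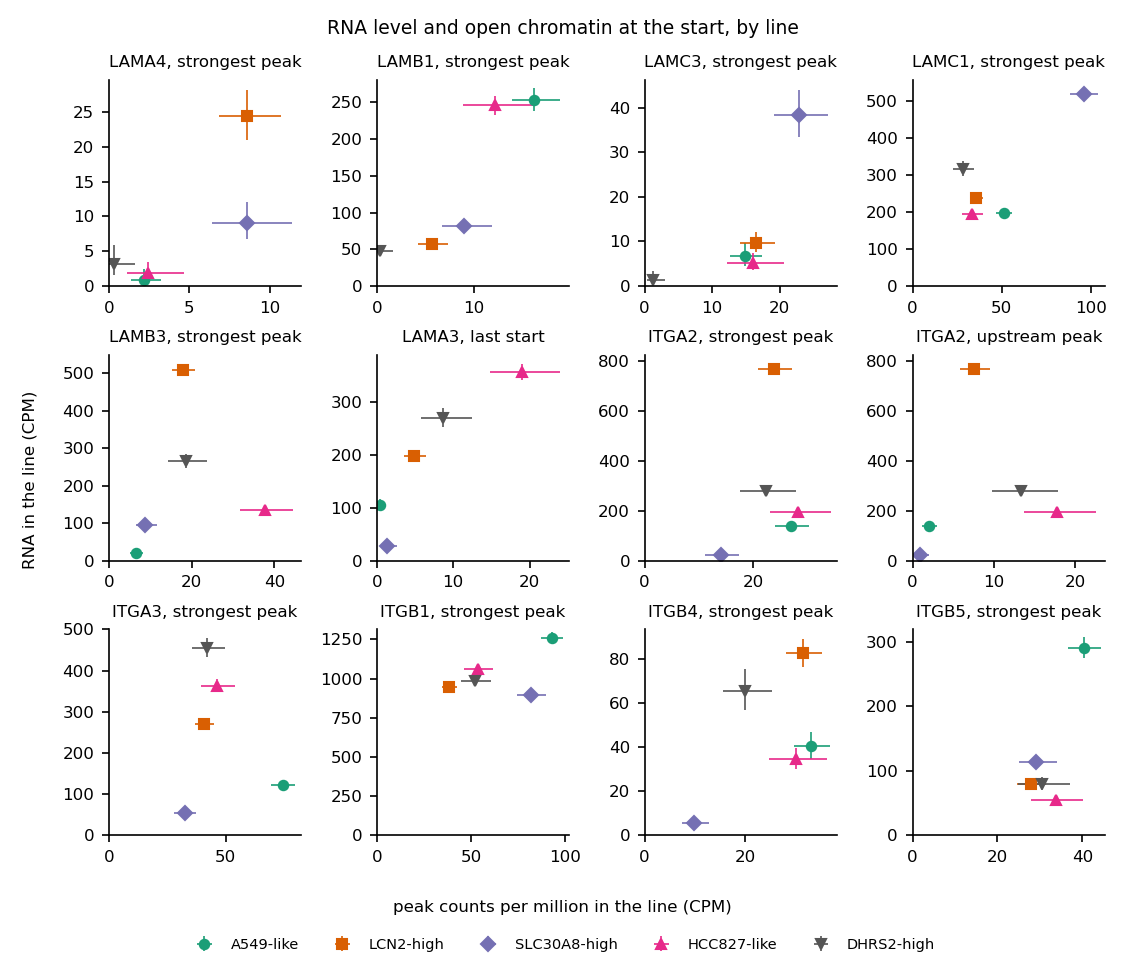
RNA level against peak level, both in CPM, for 11 members in 5 lines (ITGA2 both at its start and upstream), with exact 95% Poisson intervals. HCC827-like is highest on both axes for LAMA3 at its last start, while ITGA2 RNA spans 22.4 to 768 CPM over start peaks of 14.1 to 28.4 CPM.

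Within a line, members were spread over the barcodes to different degrees. For this each barcode was thinned to 2000 UMIs, which left out 29 shallower barcodes of A549-like, 10 of SLC30A8-high, 2 of HCC827-like and 1 each of LCN2-high and DHRS2-high. ITGB1 then had a UMI in 87.5% of A549-like barcodes and in 70.3% to 78.8% of the others. ITGA2 had one in 71.7% of LCN2-high barcodes (exact binomial interval 67.0% to 76.0%, and 96.3% unthinned) and in 3.07% of SLC30A8-high barcodes (16.7% unthinned). LAMB3 was seen in 53.0% of LCN2-high barcodes (91.9% unthinned) and 4.78% of A549-like (10.7% unthinned). LAMC1 was seen in 60.3% of SLC30A8-high barcodes (90.6% unthinned), and LAMA3 in 42.9% of HCC827-like (80.4% unthinned).

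Median depths before thinning were 4533 UMIs in A549-like, 13102 in LCN2-high, 7062 in SLC30A8-high, 11774 in HCC827-like and 10359 in DHRS2-high. ITGB6 was seen in 11.6% of HCC827-like, 4.19% of LCN2-high and 0.181% of SLC30A8-high barcodes when thinned, and in 39.7%, 21.1% and 0.355% unthinned. The ratio of variance to mean of the thinned UMIs, which is 1 for random draws from a constant level, was 1.32 for ITGA2 and 1.46 for LAMB3 in LCN2-high, 1.53 for LAMA3 in HCC827-like, and 1.74 for ITGA3 in DHRS2-high. For ITGB5 it was 0.989 in SLC30A8-high and 1.23 in A549-like.

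Part of this spread moved with the mitochondrial share of the barcode. Each line was split at 5% mitochondrial UMIs, which gave 656 and 63 barcodes in A549-like, 50 and 357 in LCN2-high, 410 and 154 in SLC30A8-high, 87 and 321 in HCC827-like and 108 and 115 in DHRS2-high. Barcodes above 5% also held more UMIs, with medians of 12956 to 17348 against 4330 to 6938. ITGB1 was higher above 5% in every line, at 1702 against 1133 CPM in A549-like, 965 against 578 in LCN2-high, 1208 against 630 in SLC30A8-high, 1109 against 556 in HCC827-like and 1072 against 681 in DHRS2-high. Within barcodes at or below 5%, A549-like stood well above the other lines, so that the narrow range of ITGB1 over whole lines depends on which barcodes are summed.

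Among members with at least 20 UMIs on each side, the widest ratio was that of LAMB3 in DHRS2-high. It was at 328 CPM above 5% [305, 351] and at 46.6 below [31.8, 65.7], a 7.03-fold ratio. In LCN2-high it was at 524 against 212 CPM, in SLC30A8-high at 142 against 52.4, in HCC827-like at 140 against 94.0, and in A549-like at 19.8 against 20.4. LAMB2 was also higher above 5% in every line, by 1.64-fold in HCC827-like (on 4 UMIs below 5%, with an interval of 0.611 to 6.17) and by 2.71-fold to 3.24-fold in the others. ITGB6 was at 32.9 CPM in LCN2-high above 5% and at 2.49 below, on 1 UMI.

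LAMA3, LAMB1, LAMC1 and ITGB5 moved less or the other way. LAMA3 was at 58.4 CPM above 5% against 120 below in A549-like, and at 355 against 376 in HCC827-like. LAMC1 was at 538 against 502 CPM in SLC30A8-high and ITGB5 at 296 against 289 in A549-like, so that their leading lines were the same on both sides. With at least 20 UMIs on each side, 2 members were at least 2-fold lower above 5% in LCN2-high. They were ITGB3, at 18.9 against 57.3 CPM, and ITGA1, at 53.5 against 117. At or below 5%, ITGB3 was thus highest in LCN2-high [36.3, 86.0] and not in DHRS2-high, at 48.0 CPM [33.1, 67.4], with overlapping intervals. Over members with at least 20 UMIs on each side, the median log2 ratio was 0.06 to 0.35 by line, against -0.37 to -0.26 over all genes. The part of depth, which differed along with the mitochondrial share, was not tested.

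**Figure D5:**
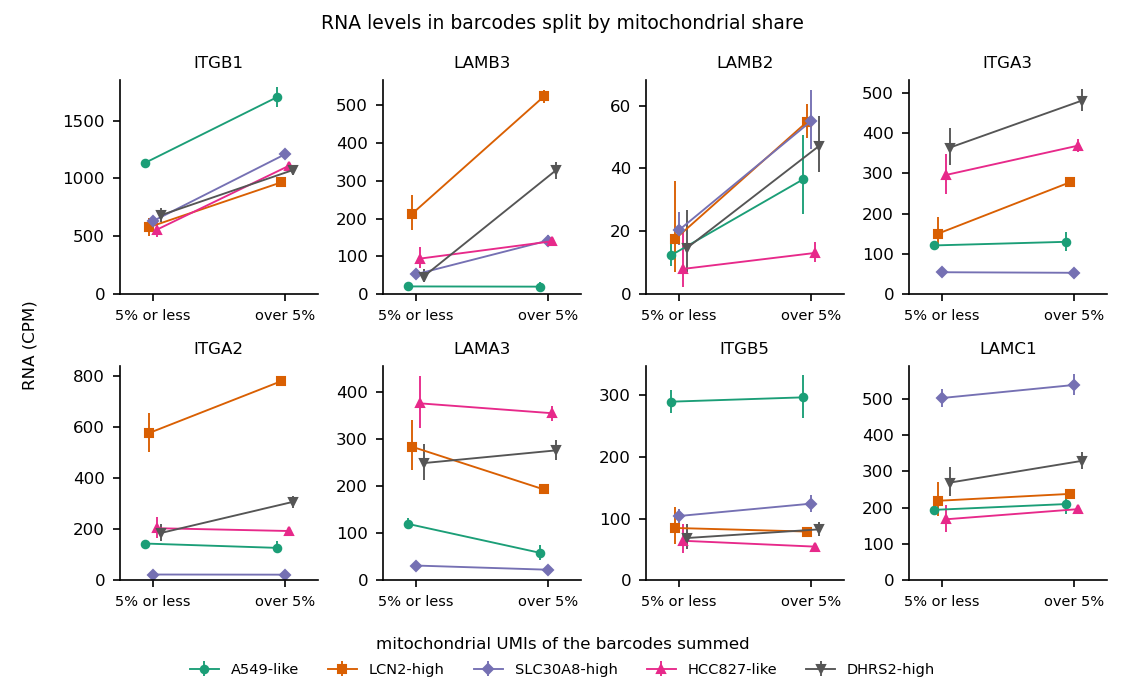
RNA level in CPM of 8 members in barcodes with at most 5% and with over 5% mitochondrial UMIs, for 5 lines, with exact 95% Poisson intervals. ITGB1 is higher over 5% in every line and LAMB3 in every line except A549-like, while LAMC1 and ITGB5 keep their leading line on both sides.

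Other genes of matrix adhesion were taken from lists by role. Of 12 partners of laminin in the basement membrane, 8 had a 4-fold range, against 38.0% of all genes, and their median log2 range was 4.51, against 1.67. The α5 and α6 chains of type IV collagen, COL4A5 and COL4A6, were at 811 and 258 CPM in A549-like and at 8.64 and 15 in DHRS2-high. COL4A1 and COL4A2, the common type IV chains, were at 0.320 and 1.92 CPM in DHRS2-high and at 8.15 to 34.3 and 37.1 to 74.9 elsewhere. The laminin-binding nidogens divided by line, with NID1 at 48.4 CPM in LCN2-high and at most 5.20 elsewhere, and NID2 at 77.0 in SLC30A8-high and at most 4.90 elsewhere.

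Of 4 measured hemidesmosome partners, only COL17A1 had a 4-fold range. COL17A1, a transmembrane collagen of the hemidesmosome, was at 1.87, 20.9, 1.30, 28.6 and 8.96 CPM in A549-like, LCN2-high, SLC30A8-high, HCC827-like and DHRS2-high. The basal keratins KRT5 and KRT14 had no UMI. Of 17 measured integrin ligands, 14 had a 4-fold range, against 38.0% of all genes. EDIL3, an RGD ligand of αv integrins, was at 996 CPM in HCC827-like and 595 in DHRS2-high against 7.05 in SLC30A8-high. Vitronectin (VTN) was at 112 CPM in SLC30A8-high and 1.21 in HCC827-like, fibronectin (FN1) at 1305 in LCN2-high and 113 in HCC827-like, and ICAM1, the ligand of β2 integrins, at 103 in LCN2-high and 1.63 in A549-like.

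Of 27 cytoplasmic adaptors, 11 had a 4-fold range, near the 38.0% of all genes, with a median log2 range of 1.88. FERMT1, the epithelial kindlin that activates integrins, was at 1.30 CPM in SLC30A8-high and 29.9 to 64.3 elsewhere, and FERMT2, the widely expressed kindlin, was at 229 in SLC30A8-high and 65.2 to 151 elsewhere. Focal adhesion kinase (PTK2) was at 428 to 868 CPM, and integrin-linked kinase (ILK) at 15.6 to 32.6. Of 9 other matrix receptors, 4 had a 4-fold range, also near that share. The collagen receptor kinase DDR2 was at 156 CPM in SLC30A8-high and at most 20.1 elsewhere, and the syndecan SDC2 at 101 there and 0.933 in A549-like. SLC30A8-high, lowest for the collagen-binding chain ITGA2, was thus the highest line for DDR2.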

How the data were processed

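The authors deposited 1 joint matrix of whole-number counts per barcode, UMIs for genes and counts for peaks, which the submitters' processing notes tie to GRCh38 and Cell Ranger ARC 2.0.0. For peak calling, annotation and strand use nothing is given in the sources used here, so overlapping antisense RNA cannot be told apart. Of the non-zero peak counts 83.5% were even, so peak intervals were computed on counts divided by 2. The deposited start and end positions per the file headers were used as coordinates (other values in the table), with 1 added to starts.

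Barcodes needed 1000 UMIs, 500 genes, 1000 peak counts and at most 20% mitochondrial UMIs (2804 passed). The 63 highest Scrublet scores were removed, since the automatic threshold called 1. RNA and ATAC were clustered apart (scanpy 1.11.5, Leiden), without members, listed genes or member peaks, and matched in 2651 barcodes (adjusted Rand index 0.927). A further 330 were left out because over 20% of their RNA was fitted to another line. This fell mostly on LCN2-high, which went from 644 to 407 barcodes. A549-like went from 751 to 719, SLC30A8-high from 594 to 564, HCC827-like from 431 to 408 and DHRS2-high from 231 to 223. UMIs were summed per line and no p-value was computed. Counts below use CPM + 1, 20 UMIs and 100 peak counts as minimums. Named members are those measured, by role, except 1 that is counted but not reported here. Members and lists were chosen with earlier results of these data known, and summing scripts were tested on simulated data. edgeR 4.0.16 gave the TMM alternative.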

Additional observations from a re-analysis of the deposited data

How the results depend on the processing

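Counts under other settings were recomputed 1 choice at a time. Members led by a line by at least 2-fold numbered 8, and 4 with ATAC clusters, 5 with RNA clusters and 5 with mixed barcodes kept. Members with a line at least 2-fold below the next numbered 11, and 6 with ATAC clusters and 5 at a pseudocount of 5 CPM. Members with a 4-fold range numbered 25, and 16 at that pseudocount, where the share of all genes was 19.2%. Member peaks with a 4-fold range numbered 24 of 66, and 15 of 51 when peak counts were reduced to present or absent. The other counts of members and of their peaks stayed within 1.5 times under these settings, whereas at 5 CPM in place of 10 the laminin trimers met numbered 8 and not 4 in A549-like and HCC827-like, and 8 and not 5 in SLC30A8-high. For the 25 members with a 4-fold range, the log2 difference between the highest and the lowest line did not change sign under 11 settings (0.52 to 5.38). Choosing them by range made a change of sign unlikely, and the sizes did move. They ran from 2.00 to 5.16 in the main setting and from 0.52 to 4.21 with ATAC clusters. The span was 1.32 to 4.39 with RNA clusters, 1.22 to 4.4 with mixed barcodes kept and 0.68 to 4.82 at a pseudocount of 5 CPM. TMM scaling moved the median of all genes by -0.12 to 0.18. Leaving mitochondrial genes out of the totals was chosen after seeing the data. No paired analysis was possible because each library kind has 1 sample. With 1 culture per line, the difference between lines and between cultures cannot be told apart.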
